A study of Mus musculus with 9 samples.

Results

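The genes of glycolysis and of the cellular response to low oxygen were compared between mouse embryonic stem cells (ESCs) and embryoid bodies, the aggregates in which ESCs differentiate. The set held 38 gene symbols chosen by name: glucose transporters, the enzymes from hexokinase to pyruvate kinase, the genes that route pyruvate and lactate, the HIF alpha subunits, the prolyl hydroxylases that mark HIF for destruction, and genes known to be induced by hypoxia. The arrays measured 18193 genes in all. A probe set paired with the symbol alone was present for 37 members. Of these, 36 entered the test, since Gapdh is measured through manufacturer's control probe sets, and Gpi1 had no probe set of its own.

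The paper names E14, an established mouse ESC line, as the source of its expression data and describes no treatment. It does not mention the embryoid bodies, so their line, and with it 1 genetic background for every sample, is taken to be the same. The 4 ESC arrays carry the numbers 2, 6, 8 and 10 in their labels, and the 5 embryoid body arrays the numbers 1, 3, 5, 7 and 9. The labels give neither the age of the embryoid bodies nor what the numbers stand for. The paper describes the ESC samples as biological replicates, and for the embryoid bodies nothing says whether they came from separate cultures, so P values measure the spread between these samples. RNA was hybridized to Affymetrix GeneChip arrays covering the mouse genome, and each value below is the log2 of the deposited GCRMA intensity of the member's probe set of highest mean, written in the array order just given.

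Glycolysis splits glucose into pyruvate, and several of its steps are catalyzed by enzymes that exist as paralogues with different tissue distributions. Pluripotent cells are known for a high glycolytic rate. The HIF transcription factors are stabilized when oxygen is low and induce many glycolytic genes, and the prolyl hydroxylases of the Egln family, which need oxygen, target their alpha subunits for degradation. Embryoid bodies grow as solid aggregates, so their inner cells receive oxygen and nutrients by diffusion.

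The labelled cell types were checked on marker genes. Of 10 ESC markers, 9 were lower in embryoid bodies and Esrrb was not called. The level of the list summed on the linear scale ran from log2 15.22 to 15.34 in ESCs and from 11.91 to 12.85 in embryoid bodies. Heart and muscle markers were higher for 8 of 12 genes, with Ckm and Myog near the floor of the scale, that is under log2 4 on every array, and a sum of 8.51 to 9.27 in ESCs against 13.93 to 14.22 in embryoid bodies. Mesenchymal markers were higher for 7 of 9, endothelial for 4 of 7, visceral endoderm for 3 of 9, primitive erythroid for 3 of 6 and neural for 1 of 7, with 2 neural markers lower. Of these lists Thy1, Pecam1, Tie1, Apoa1, Apob, Amn, Cubn, Alas2, Klf1 and Map2 lay near the floor. Among them only the endothelial Tie1 was called higher. As arrays give no counts, precision here is set by how many arrays there are.

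In embryoid bodies 18 of the 36 members differed from ESCs at an adjusted P under 0.05, which is 50% of the members beside 30.4% of all genes. Of these, 10 fell, among them the glucose transporter Slc2a3, hexokinase Hk2, the phosphofructokinases Pfkl and Pfkp and the kinase Pdk1. The other 8 rose, among them the prolyl hydroxylase Egln1, the collagen hydroxylases P4ha1 and P4ha2, the growth factor Vegfa and the enolase Eno3. The 8 that rose are 22.2% of the members beside 15.7% of all genes, and the 10 that fell are 27.8% beside 14.7%. All genes include many of low level, which few members are. With a mean of log2 4 or more required in the fit, 8 of 33 members rose, beside 3080 of 11982 genes, so the share that rose was no higher among members. In that fit 12 of the 33 members fell, beside 2837 genes. With a change of at least 2-fold required, 5 members rose and 5 fell, each 13.9% of the members, where 5.88% of all genes rose and 3.63% fell. The median log2 change was -0.16 over the members and -0.04 over all genes.

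Called members of each broad role stood on both sides. Of 22 measured genes of glycolysis, its transporters and the fate of pyruvate, 8 fell and 3 rose, with a median log2 change of -0.32. Of 14 measured HIF and hypoxia-response genes, 5 rose and 2 fell, with a median of 0.19. Among all genes 15.7% rose and 14.7% fell, so called genes on both sides are not particular to these roles. Pgam2, Eno2 and Car9 lay near the floor on every array. Groups did not overlap for 22 of the 36 members and for 6373 (35%) of all genes.

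**Figure D1:**
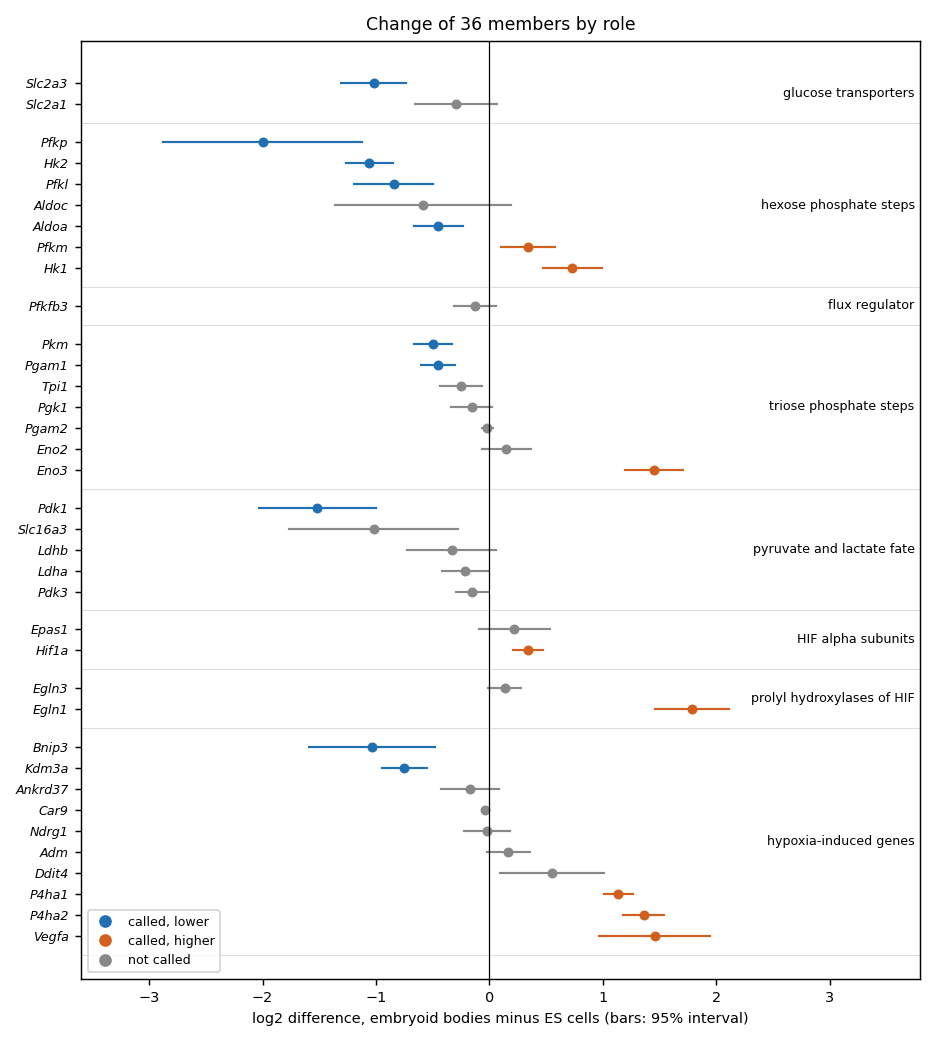
Log2 difference of embryoid bodies minus ESCs (horizontal axis) for the 36 measured members grouped by role, with 95% intervals from limma as bars. Blue and orange points are members called lower and higher, grey points were not called, and the interval of Pfkp, centred on -2.0, is the widest.

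To show the DNA at the members with the largest called changes, the windows around the annotated starts of the 3 that fell most, Pfkp, Pdk1 and Hk2, and of the 3 that rose most, Egln1, Vegfa and Eno3, are given below. Each runs 5′ to 3′ on the gene's strand from 250 bases before to 50 after the start (RefSeq, GRCm38.p6). The capitals mark the core words of HIF binding, ACGTG and GCGTG, on either strand. The first of them lies within the E-box CACGTG, so the letters alone do not tell these apart.
Pfkp, chr13:6648722-6649021, minus strand: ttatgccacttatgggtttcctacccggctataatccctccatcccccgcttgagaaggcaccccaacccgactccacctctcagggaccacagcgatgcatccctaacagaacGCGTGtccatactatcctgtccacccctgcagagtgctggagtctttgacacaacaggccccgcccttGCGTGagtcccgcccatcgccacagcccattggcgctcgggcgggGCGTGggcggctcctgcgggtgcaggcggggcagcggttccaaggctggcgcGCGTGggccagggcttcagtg
Pdk1, chr2:71872974-71873273, plus strand: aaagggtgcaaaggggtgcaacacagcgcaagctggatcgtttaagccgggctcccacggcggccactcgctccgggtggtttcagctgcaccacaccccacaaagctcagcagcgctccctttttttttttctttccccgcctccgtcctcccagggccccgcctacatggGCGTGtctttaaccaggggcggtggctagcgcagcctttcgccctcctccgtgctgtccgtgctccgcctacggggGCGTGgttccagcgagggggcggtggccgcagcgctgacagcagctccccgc
Hk2, chr6:82774405-82774704, minus strand: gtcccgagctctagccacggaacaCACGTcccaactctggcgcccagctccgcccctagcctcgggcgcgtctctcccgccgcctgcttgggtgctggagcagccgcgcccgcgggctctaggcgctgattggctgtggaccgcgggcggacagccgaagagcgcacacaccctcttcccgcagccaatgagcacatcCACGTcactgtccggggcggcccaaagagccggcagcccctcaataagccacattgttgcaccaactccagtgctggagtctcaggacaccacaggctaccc
Egln1, chr8:124949205-124949504, minus strand: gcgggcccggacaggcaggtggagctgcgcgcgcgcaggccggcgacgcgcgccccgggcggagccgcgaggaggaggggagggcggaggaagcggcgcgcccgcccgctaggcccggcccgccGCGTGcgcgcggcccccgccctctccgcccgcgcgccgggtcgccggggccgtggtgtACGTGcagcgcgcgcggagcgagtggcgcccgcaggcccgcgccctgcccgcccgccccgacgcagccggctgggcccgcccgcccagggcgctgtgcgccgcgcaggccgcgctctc
Vegfa, chr17:46032328-46032627, minus strand: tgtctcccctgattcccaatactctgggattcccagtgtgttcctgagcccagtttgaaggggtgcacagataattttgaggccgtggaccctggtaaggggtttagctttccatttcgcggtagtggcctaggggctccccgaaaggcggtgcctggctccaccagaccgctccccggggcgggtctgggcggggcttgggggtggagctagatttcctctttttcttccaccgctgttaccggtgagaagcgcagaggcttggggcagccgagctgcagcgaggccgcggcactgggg
Eno3, chr11:70656926-70657225, plus strand: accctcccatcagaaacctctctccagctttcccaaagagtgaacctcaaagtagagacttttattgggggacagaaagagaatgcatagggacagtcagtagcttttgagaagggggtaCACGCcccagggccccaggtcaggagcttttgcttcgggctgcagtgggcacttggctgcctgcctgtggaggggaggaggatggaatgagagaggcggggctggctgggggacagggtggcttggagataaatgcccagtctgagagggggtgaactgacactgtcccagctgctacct
The windows held 4 matches in Pfkp, 2 in Pdk1, 2 in Hk2, 2 in Egln1, 1 in Eno3 and 0 in Vegfa. Matches outside a window or at another start of the gene were not counted, so the 0 of Vegfa holds for this window alone. Each strand is counted, so an E-box, which reads the same on both, adds 2 matches. A window was at hand for 35 members and was the most upstream annotated start where a gene had several. It held a match in 27 members, 77.1%, while 55.7% of the windows of genes in the fit and 43.8% of the windows of every gene did. Members were chosen by name, among them genes known to be induced by hypoxia, so this difference is a description and has no test. Matches were present in 7 of 9 members that fell, in 6 of 8 that rose and in 13 of 16 that were not called. The words contain the dinucleotide CG, and the median number of CG per window was 21 in members, 17 in genes in the fit and 7 in every gene. Ldha, whose change was not called, held the highest number of matches, 7, which include 2 E-boxes.

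Glucose enters the cell through facilitative transporters, of which Slc2a1 (GLUT1) is nearly ubiquitous and Slc2a3 (GLUT3) has a high affinity for glucose. Slc2a3 read 13.58, 13.60, 13.47 and 13.45 in ESCs and 12.71, 12.71, 12.68, 12.29 and 12.14 in embryoid bodies. Every embryoid body array lay below every ESC array, and the mean fell by 1.02 ± 0.13 (SE) on the log2 scale, so that ESCs were 2.03-fold higher (limma, adjusted P = 0.0003). Slc2a1 read 13.40, 13.49, 13.43 and 13.28 in ESCs and 13.33, 13.38, 13.33, 12.82 and 12.65 in embryoid bodies. Here the groups overlapped, with embryoid body arrays 1, 3 and 5 within the ESC range and 7 and 9 below it. The change of -0.30 (95% interval -0.66 to 0.07) did not pass the test (adjusted P = 0.15), and without embryoid body arrays 7 and 9 it was -0.05.

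Hexokinases trap glucose in the cell as its phosphate. Hk2, the inducible form, read 10.78, 10.84, 10.70 and 10.65 in ESCs and 9.81, 9.77, 9.84, 9.55 and 9.43 in embryoid bodies. The groups were apart by far more than their spread, and ESCs were 2.09-fold higher (adjusted P = 3.2e-05). Hk1, the form of most tissues, moved the other way and read 8.15, 8.46, 8.47 and 7.996 in ESCs and 8.77, 9.09, 8.97, 9.08 and 9.10 in embryoid bodies. All embryoid body arrays lay above all ESC arrays, a rise of 0.73 ± 0.12 (SE), 1.66-fold (adjusted P = 0.0014). Its other probe set, around log2 4, changed by 0.11 and was not called.

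Phosphofructokinase commits sugar to glycolysis and is built from muscle (Pfkm), liver (Pfkl) and platelet (Pfkp) type subunits. Pfkp showed the largest fall among the members and read 8.89, 9.08, 8.27 and 8.28 in ESCs and 7.04, 7.24, 7.26, 6.02 and 5.58 in embryoid bodies. Its arrays in each group fell into a higher and a lower set, but no embryoid body array reached an ESC array, and ESCs were 4.0-fold higher (-2.0 ± 0.39 (SE), adjusted P = 0.0046). Pfkl read 10.52, 10.62, 10.25 and 10.31 in ESCs and 9.70, 9.82, 9.82, 9.43 and 9.13 in embryoid bodies. It was lower in embryoid bodies by a log2 change of -0.84 ± 0.15 (SE) (adjusted P = 0.0033), a second probe set changed by -0.85, and the third, near the floor on every array, by -0.07. Pfkm read 8.32, 8.34, 7.99 and 7.86 in ESCs and 8.52, 8.56, 8.45, 8.40 and 8.41 in embryoid bodies. The groups did not overlap, and the rise of 0.34 ± 0.11 (SE) just passed the threshold (adjusted P = 0.047). It did not pass in 10 of 20 alternatives, those without ES 8, ES 10, EB 1, EB 3, EB 5 or EB 7 among them, where the change ran from 0.25 to 0.36.

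Aldolase splits the hexose. Aldoa, its main form in muscle and most tissues, went from 13.04 ± 0.14 to 12.59 ± 0.17 (SD, n = 4 and 5 arrays) and was called lower (-0.45, adjusted P = 0.0073), with 4 of its 5 probe sets called. Aldoc, the brain type form, changed by -0.59 with the widest spread between ESC arrays among the members (SD 0.69) and was not called (adjusted P = 0.18). With the split of arrays 1 to 6 against 7 to 10 as a term in the fit, Aldoc was called lower (-0.68, adjusted P = 0.0061). The regulator Pfkfb3, which makes the allosteric activator of phosphofructokinase, changed by -0.13 (95% interval -0.31 to 0.06).

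**Figure D2:**
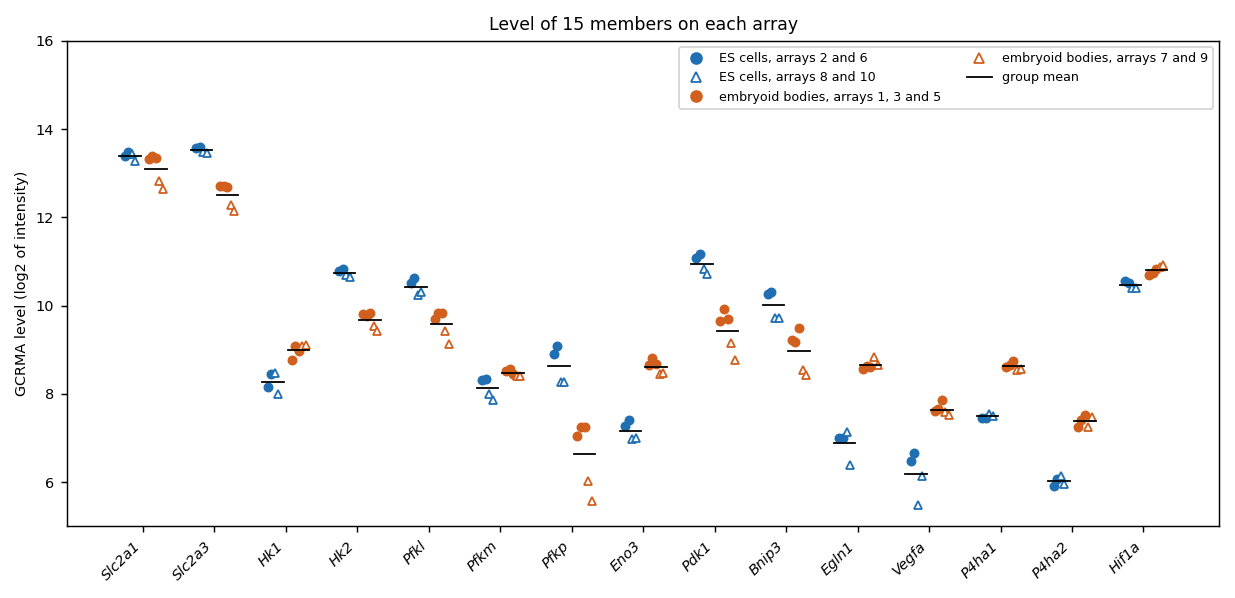
Log2 GCRMA level (vertical axis) of 15 members on each of the 4 ESC arrays (blue) and 5 embryoid body arrays (orange), with group means as black lines. Open triangles mark the arrays numbered 7 to 10, and Pfkp falls from 8.63 ± 0.42 to 6.63 ± 0.78 (SD) while Egln1 rises from 6.88 ± 0.34 to 8.66 ± 0.10.

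Below the hexose steps come the enzymes that turn triose phosphates into pyruvate. Gapdh, which oxidizes the triose phosphate, read 14.18, 14.18, 14.07 and 14.06 in ESCs and 13.91, 13.97, 13.97, 13.96 and 13.89 in embryoid bodies on its 3′ control probe set. Its groups did not overlap, and the differences of embryoid bodies minus ESCs were -0.18, -0.24 and -0.20 for the 3′, middle and 5′ control probe sets, with no test. Pgam1, a phosphoglycerate mutase, was called lower (-0.45, adjusted P = 0.00073), as was pyruvate kinase Pkm (-0.50, adjusted P = 0.0009). Triose phosphate isomerase Tpi1 (-0.25, adjusted P = 0.063) and phosphoglycerate kinase Pgk1 (-0.16, adjusted P = 0.14) did not pass. With the same split as a term in the fit both did, Tpi1 at -0.27 (adjusted P = 0.00068) and Pgk1 at -0.18 (adjusted P = 0.0021). In the fit without it the ESC means were 1.19-fold and 1.12-fold those of embryoid bodies.

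Eno3, the muscle type enolase, was the only gene of the triose steps that rose, among the 7 measured. It read 7.26, 7.42, 6.99 and 7.003 in ESCs and 8.66, 8.81, 8.68, 8.46 and 8.46 in embryoid bodies. The lowest embryoid body array stood above the highest ESC array, and the level was 2.73-fold higher (1.45 ± 0.11 (SE), adjusted P = 1.6e-05). The muscle markers moved in the same direction, as given above, and their part in the rise was not tested. In these bulk samples more cells of a type and more RNA per cell cannot be told apart, for this and every other result. The neuronal enolase Eno2 and the muscle mutase Pgam2 lay near the floor in both groups.

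Lactate dehydrogenase interconverts pyruvate and lactate. Neither Ldha (-0.22, adjusted P = 0.089) nor Ldhb (-0.33, adjusted P = 0.14) was called, while with the array split as a term Ldha was called lower (-0.24, adjusted P = 0.021). Pyruvate dehydrogenase kinases shut off the entry of pyruvate into the citric acid cycle. Pdk1, an inducible kinase of this family, read 11.08, 11.16, 10.84 and 10.73 in ESCs and 9.66, 9.92, 9.69, 9.16 and 8.76 in embryoid bodies. All embryoid body arrays were below all ESC arrays, and ESCs were 2.86-fold higher (-1.52 ± 0.23 (SE), adjusted P = 0.00098). Pdk3 changed by -0.15 (adjusted P = 0.088). The lactate exporter Slc16a3 (MCT4) ran from 7.99 to 8.62 in ESCs and from 6.46 to 7.85 in embryoid bodies, without overlap. Its change of -1.02 ± 0.33 (SE) missed the threshold (adjusted P = 0.058), and 8 of 20 alternatives called it, among them the array split as a term (-1.11, adjusted P = 0.00079). Without embryoid body arrays 7 and 9 the change in Slc16a3 was -0.52.

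Among the regulators of the hypoxia response, Hif1a, the alpha subunit present in most cells, read 10.55, 10.52, 10.41 and 10.39 in ESCs and 10.70, 10.73, 10.83, 10.87 and 10.92 in embryoid bodies. The embryoid body arrays lay above the ESC arrays by a small margin, a rise of 0.34 ± 0.06 (SE) (adjusted P = 0.0023). This rests on 1 probe set, and the other 2 above the floor changed by 0.04 and -0.09 without a call. Epas1, the alpha subunit best known from endothelium, changed by 0.22 (95% interval -0.09 to 0.54, adjusted P = 0.21).

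Egln1 (PHD2), the main oxygen sensor that hydroxylates HIF alpha, had the largest rise of the members and read 7.01, 7.0, 7.13 and 6.38 in ESCs and 8.57, 8.64, 8.61, 8.84 and 8.67 in embryoid bodies. Its level in embryoid bodies was 3.45-fold that in ESCs (1.79 ± 0.15 (SE), adjusted P = 2.1e-05), and ES 10 stood below the other ESC arrays. A second Egln1 probe set was also called, with a smaller change of 0.40. Egln3, a HIF-inducible hydroxylase, changed by 0.13 (95% interval -0.02 to 0.28) and was not called.

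Of 10 measured members grouped here as hypoxia-induced, 3 were higher, 2 lower and 5 not called, where 15.7% of all genes were higher and 14.7% lower. The count depends on the grouping. HIF also induces many glycolytic genes, and these were counted with the 22 genes of glycolysis, of which 8 fell and 3 rose. The HIF-inducible Egln3 was counted with the hydroxylases. Vegfa, the growth factor of blood vessels, read 6.47, 6.66, 5.47 and 6.15 in ESCs and 7.61, 7.66, 7.86, 7.59 and 7.52 in embryoid bodies. The groups were apart, with a rise of 1.46 ± 0.22 (SE) or 2.75-fold (adjusted P = 0.00089). The other Vegfa probe set changed by 0.06 and was not called (adjusted P = 0.51), so probe sets of this gene gave different answers.

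P4ha1 and P4ha2 encode catalytic subunits of the prolyl hydroxylase that collagen needs to fold. P4ha1 read 7.45, 7.46, 7.55 and 7.49 in ESCs and 8.61, 8.65, 8.75, 8.54 and 8.57 in embryoid bodies. P4ha2 read 5.92, 6.07, 6.14 and 5.95 in ESCs and 7.25, 7.41, 7.52, 7.25 and 7.48 in embryoid bodies. In both, arrays of a group lay within 0.3 of each other while the groups differed by more than 1, and the levels were 2.2-fold and 2.57-fold higher (adjusted P = 1.1e-06 and 3.1e-06). Mesenchymal markers, collagens among them, were higher on the same arrays, with a sum of 8.74 to 9.92 in ESCs and 13.32 to 13.45 in embryoid bodies and Thy1 near the floor. Their part in the rise was not tested.

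Bnip3, a mitochondrial protein that promotes mitophagy, read 10.27, 10.31, 9.72 and 9.73 in ESCs and 9.22, 9.18, 9.49, 8.54 and 8.44 in embryoid bodies. It was lower on every embryoid body array, by 2.05-fold (-1.04 ± 0.24 (SE), adjusted P = 0.014). Kdm3a, a histone H3 lysine demethylase, was lower as well (-0.75, adjusted P = 0.0002). Ddit4, an inhibitor of mTOR signalling, changed by 0.55 with overlapping groups (adjusted P = 0.08), and was called higher with the array split as a term (0.49, adjusted P = 0.0017). Ankrd37 (-0.17), the vasodilator peptide Adm (0.17) and Ndrg1 (-0.02) were not called. Of these, Adm was called with the array split as a term (0.19, adjusted P = 0.046). The carbonic anhydrase Car9, a classical marker of hypoxia, lay near the floor on all arrays at 2.17 and 2.13.

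Whether the probe sets of paralogues changed unequally was tested on the difference of their log2 levels within each array. Levels of different probe sets are not comparable, but a shift in their difference between the groups does not need them to be. To stand for the genes, it does need the probe sets to respond alike. Those of the same gene did not always change alike, with 1.79 and 0.40 for Egln1 and -1.02 to -2.50 for Slc2a3. A shift below is thus one between the probe sets used, and need not mean that the genes changed unequally. The exact permutation test over the 9 arrays has 126 splits and cannot give a two-sided P below 0.0079, and P values were adjusted over the 13 pairs. Of the 13 pairs, 10 shifted. How often pairs of other genes shift was not counted, so this number has no share to stand beside. The phosphofructokinase genes each enter several pairs, which are thus not independent.

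Hk2 over Hk1 fell by 1.79 on the log2 scale, with array values of 2.23 to 2.65 in ESCs and 0.33 to 1.04 in embryoid bodies. Pfkp over Pfkm fell by 2.34, with values of 0.28 to 0.74 in ESCs and -2.83 to -1.19 in embryoid bodies, a 5.07-fold shift. These were pairs whose members were called in opposite directions, as was Pfkm over Pfkl, which rose by 1.19. Pfkp fell more than Pfkl, by -1.16 in their difference, and Slc2a3 over Slc2a1 shifted by -0.72. Pdk3 over Pdk1 shifted by 1.36 and Egln3 over Egln1 by -1.65. Eno3 over Eno2 (1.30) and Pgam2 over Pgam1 (0.43) shifted too, but Eno2 and Pgam2 were near the floor, so those follow the expressed partner. For each of these 9 pairs the exact P was 0.0079 (adjusted 0.011). P4ha2 over P4ha1 shifted by 0.23 (exact P = 0.016, adjusted 0.021).

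The remaining pairs showed no such shift. Aldoc over Aldoa differed by -0.14 (exact P = 0.64), Ldhb over Ldha by -0.12 (exact P = 0.56) and Epas1 over Hif1a by -0.12 (exact P = 0.6), each with an adjusted P of 0.64. Within the arrays numbered 1 to 6 and those numbered 7 to 10, Ldhb over Ldha differed by -0.54 and 0.36, and Epas1 over Hif1a by 0.27 and -0.62, values with no test.

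**Figure D3:**
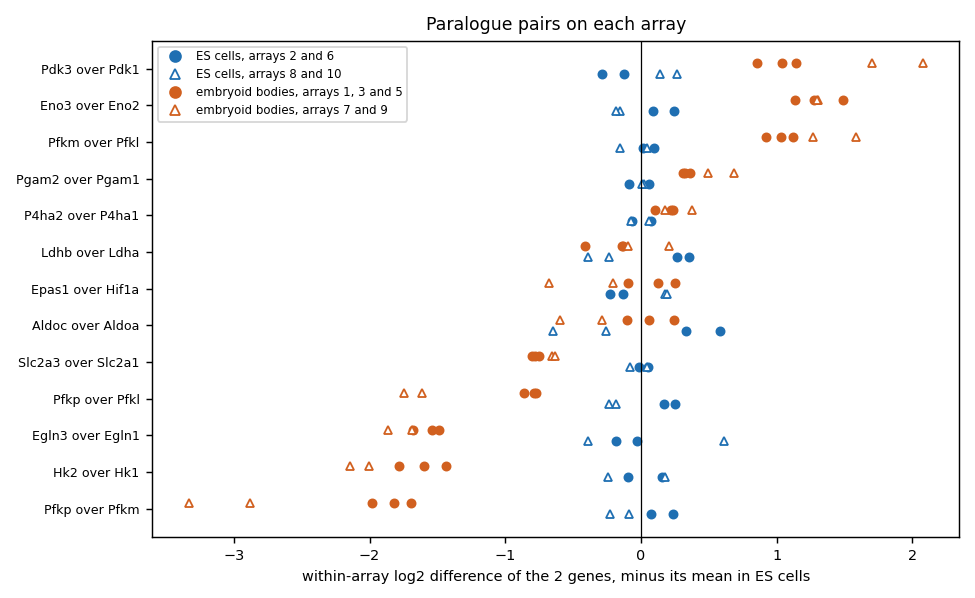
Within-array log2 difference of 2 paralogues minus its mean in ESCs (horizontal axis) for 13 pairs, with each point an array. Embryoid body arrays (orange) lie clear of the ESC arrays (blue) in 10 pairs and overlap them for Ldhb over Ldha, Epas1 over Hif1a and Aldoc over Aldoa.

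The spread within each group had a shape that many members shared. Embryoid body arrays 7 and 9 lay both below arrays 1, 3 and 5 for 25 of 36 members, or 69.4%, beside 9.81% of all genes. Restricted to a mean of log2 4 or more it was 24 of 33 members, 72.7%, beside 14.1% of genes. They lay both above for 4 members, Pdk3, Egln1, Adm and Hif1a, 11.1% beside 17.2%. The ESC arrays showed a like split, with 8 and 10 both below 2 and 6 for 19 members, 52.8% beside 21.7%, and both above for P4ha1, Adm, Epas1 and Kdm3a, 11.1% beside 13.6%. The split was looked at because earlier work on these arrays had named it, so it is a description and has no test.

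In embryoid bodies the mean of arrays 7 and 9 minus that of 1, 3 and 5 was largest for Pfkp (-1.38) and Slc16a3 (-1.25), followed by Bnip3 (-0.80), Pdk1 (-0.80), Aldoc (-0.80) and Slc2a1 (-0.62). Pfkp, Pdk1 and Bnip3, which fell between the groups, were thus lower still on arrays 7 and 9. In ESCs the mean of 8 and 10 minus that of 2 and 6 was largest for Aldoc (-1.15), Vegfa (-0.76), Pfkp (-0.72) and Ldhb (-0.67). The median of this difference was -0.23 in embryoid bodies and -0.13 in ESCs over the members, and 0.01 and -0.02 over genes of mean log2 4 or more.

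Other measures were read along the same split. Pearson's r across probe sets was 0.9983 to 0.9986 among embryoid body arrays 1, 3 and 5 and 0.9984 between 7 and 9, but 0.9966 to 0.9975 across the sets. Among ESC arrays it was 0.9978 and 0.9976 within the sets and 0.9953 to 0.9958 across. The summed primitive erythroid markers stood at 13.46 to 13.53 on arrays 1, 3 and 5 and at 11.56 and 11.87 on 7 and 9, with Alas2 and Klf1 near the floor. The summed ESC markers stood at 12.54 to 12.85 on arrays 1, 3 and 5 and lower, at 12.22 and 11.91, on 7 and 9. Neural markers ran the other way, at 9.01 to 9.07 against 9.56 and 9.44, with Map2 near the floor. The other lists differed less. Muscle stood at 13.93 to 14.19 against 14.22 and 14.21, and mesenchyme at 13.37 to 13.45 against 13.32 and 13.405. Endothelium stood at 7.95 to 8.29 against 7.88 and 7.92, and visceral endoderm at 9.57 to 9.72 against 9.52 and 9.41. The 3′ minus 5′ difference of the Gapdh control probe sets, a sign of RNA integrity, ran from -0.02 to 0.01 on arrays 1, 3 and 5 and stood at 0.03 and 0.01 on 7 and 9, and that of Actb ran from 0.55 to 0.69 and stood at 0.61 and 0.72. On the ESC arrays the Actb difference was 0.65 and 0.63 on 2 and 6 and 0.67 and 0.71 on 8 and 10. Single markers differed between these ESC sets in both directions. Col1a1 read 6.98 and 6.78 on 2 and 6 and 9.03 and 9.02 on 8 and 10, and Utf1 read 10.92 and 10.73 against 10.44 and 10.27. The summed lists were not read by set on the ESC arrays. What the array numbers stand for is not stated, and the part of any of these measures in the members' split was not tested.

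**Figure D4:**
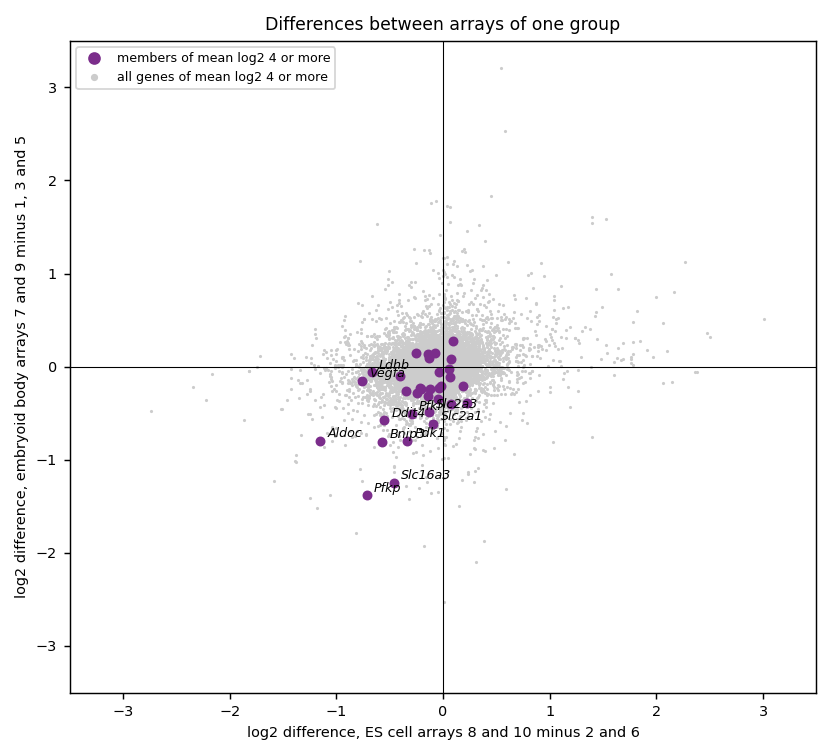
Log2 difference of ESC arrays 8 and 10 minus 2 and 6 (horizontal axis) against that of embryoid body arrays 7 and 9 minus 1, 3 and 5 (vertical axis) for members (purple) and all genes (grey) of mean log2 4 or more. Members lie mostly below the horizontal line at 0, down to -1.38 for Pfkp.

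With the split by array number as a term in the fit, 10 members were called higher and 15 lower. In that fit 2988 of all 18193 genes were called higher and 2934 lower. Arrays 1 to 6 alone gave 8 members higher and 15 lower, beside 2299 and 2607 of all genes. Arrays 7 to 10 alone gave 8 and 15 members, beside 2392 and 1837 of all genes. Pfkp changed by -1.81 within arrays 1 to 6 and by -2.47 within 7 to 10, Pdk1 by -1.37 and -1.83, Bnip3 by -0.997 and -1.23, Slc16a3 by -0.75 and -1.54, Egln1 by 1.60 and 1.999 and Vegfa by 1.14 and 1.75. Each of these 12 within-set changes passed the test. Slc2a1 changed by -0.10 and -0.62, and Ldha by -0.10 and -0.40, and for these genes only the second passed (adjusted P = 0.013 for both, limma). Without embryoid body arrays 7 and 9, 9 members were called higher and 10 lower, beside 2354 and 2211 of all genes.

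Probe sets of a member did not always give the same change. Above the floor, 30 probe sets besides the highest measured a member, of which 10 were called. That is close to the share of all genes called on their brightest probe sets, 30.4%. For Slc2a3 the change ran from -1.02 in its brightest probe set to -2.50 in its dimmest, and for Pdk1 from -1.84 to -0.58. Vegfa, Egln1, Hk1 and Hif1a were called on the brightest probe set with smaller changes on the others, as given above. The probe sets of Aldoa, Tpi1, Pgk1 and Ndrg1 used here are of a type (_x_at) that can also bind similar transcripts, and that of Slc2a3 (_s_at) can bind several. With plain probe sets only, 5 members rose and 7 fell among 29 measured, beside 2294 and 2124 of 16591 genes.

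**Figure D5:**
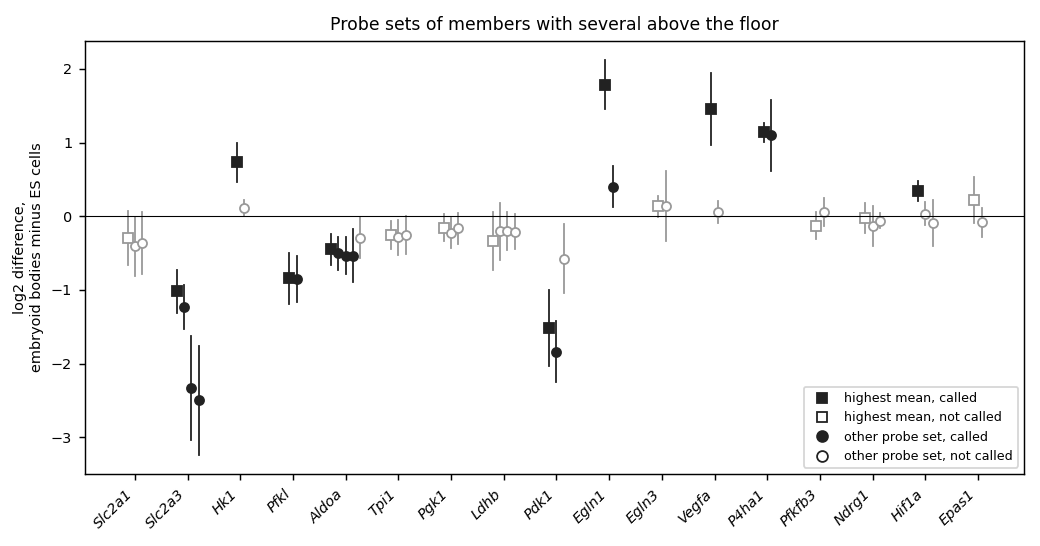
Log2 difference of embryoid bodies minus ESCs with its 95% interval (vertical axis) for each probe set above the floor of the members that have several. Squares are the brightest probe set and filled symbols passed the test, and the Vegfa probe sets stand at 1.46 (called) and 0.06 (not called).

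Beyond the members, 97 further genes of the pathways were measured, of which 42 were called, 20 higher and 22 lower. Over all genes 30.4% were called, 15.7% higher and 14.7% lower, and the counts of the lists stand beside these shares. With a mean of log2 4 or more required in the fit, 21 of 81 rose and 22 fell, beside 3080 and 2837 of 11982 genes. Of 35 other genes of glycolysis and pyruvate use, 2 rose and 5 fell, a smaller share than among all genes. The pyruvate dehydrogenase subunits Pdhb (-0.97 ± 0.09 (SE), adjusted P = 4.8e-05) and Pdha1 (-0.54, adjusted P = 7.4e-05), through which pyruvate enters the citric acid cycle, were lower, as were Galm (-0.45), a mutarotase of sugars that lay under log2 4 on every embryoid body array and averaged 4.14 in ESCs, and Adpgk (-0.21, adjusted P = 0.047, lost in 11 alternatives), an ADP-dependent glucokinase. Pgm1, a phosphoglucomutase, was higher (0.52). In the pentose phosphate pathway, which branches off at glucose 6-phosphate, 1 of 7 genes rose, Pgls (0.59), and 3 fell, Rpe (-0.69), Taldo1 (-0.38) and Pgd (-0.19).

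Of 13 further regulators of HIF, 5 rose and 3 fell. Vhl, the ubiquitin ligase subunit that binds hydroxylated HIF alpha, went from 6.81 ± 0.57 to 7.89 ± 0.10 (SD, adjusted P = 0.0075), a call lost without embryoid body arrays 7 and 9, and Arnt2, a partner of HIF alpha, was 1.96-fold its level in ESCs (adjusted P = 0.0042). Siah1a, a ubiquitin ligase of the hydroxylases, rose by 0.58. Cited2, which competes with HIF for a coactivator, changed by -0.77 and the mitochondrial chaperone Hspa9 by -0.76, both called lower.

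Of 42 further hypoxia-induced genes, 12 rose and 11 fell, with a median log2 change of 0.00. The chemokine receptor Cxcr4 went from 3.78 ± 0.56 to 6.84 ± 0.47 (SD, adjusted P = 7.8e-05), the lipoprotein receptor Vldlr was 5.39-fold its level in ESCs (adjusted P = 0.00021), and Nfil3, a transcriptional repressor, 3.06-fold (adjusted P = 0.00079). In ESCs Cxcr4 and Nfil3 averaged under log2 4, near the floor. On plain probe sets alone Vldlr changed by 0.45 and was not called. In the other direction, the repressor Bhlhe40 was 3.33-fold higher in ESCs (adjusted P = 3.8e-05) and the histone demethylase Kdm4c 3.31-fold (adjusted P = 3.6e-06). As among the members and among all genes, called genes of this list stood on both sides.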

How the data were processed

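RNA of 4 ESC and 5 embryoid body samples was measured on arrays of 45101 probe sets. The authors computed expression with GCRMA, which corrects background from probe sequence, normalizes between arrays and summarizes each probe set, and deposited intensities on a linear scale. Whether all 9 arrays were normalized together is not given in the sources used here. Because GCRMA equalizes the arrays, a change in total RNA per cell cannot be seen, and low values pile up at a floor. Every column of per-sample values belonged to a sample, so 0 were left unused.

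The log2 of the deposited values was taken with no further normalization. The test excluded 64 manufacturer's control probe sets. For the other 45037, embryoid bodies and ESCs were compared by limma 3.58.1 in R 4.3.3 (lmFit, then eBayes with trend and robust, two-sided), with Benjamini-Hochberg adjustment over all probe sets and a call at 0.05. The annotation given with the array pairs 34945 probe sets with 1 gene, 932 with several and 9160 with none. Each gene was represented by its probe set of highest mean. Paralogue pairs were tested by exact permutation over arrays (scipy 1.17.1). The scripts were tested on simulated data.

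The members and gene lists were chosen with earlier results of these data known. Values on every array are given for members called with a log2 change of at least 1, for paralogues called in opposite directions, and for Slc2a1, Gapdh, Hif1a and Vegfa. From each list of further pathway genes up to 5 called genes are named, those of the largest change whose groups do not overlap. Markers of ESCs, muscle, visceral endoderm, erythroid cells, endothelium, mesenchyme and neural cells were counted. The alternatives were quantile normalization, median centring, array weights, an eBayes step with neither trend nor robust, plain probe sets, the mean over probe sets, a minimum of log2 4, a change of at least 1, each array left out, arrays 1 to 6 and 7 to 10 alone or as a term, and, chosen after seeing the data, no embryoid body arrays 7 and 9.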

Additional observations from a re-analysis of the deposited data

Results flagged for a closer look

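Dixon's test for a sample far from its group was run on 72 groups of arrays, ESC and embryoid body arrays of each member. It marked 3, and chance marks about 1 in 20, or 3.6 of 72. In ESCs Egln1 was lowest on array 10, at 6.38 with the next array at 7.0, and the gap was 0.83 of the range of the group. Ankrd37 was highest on ESC array 10, at 6.11 with the next at 5.97, a gap of 0.961 of a range of only 0.15. Pfkfb3 was lowest on ESC array 8, at 6.60 with the next at 6.86, a gap of 0.953 of the range.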

How the results depend on the processing

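Pfkm kept its call in 10 of 20 alternatives and Hif1a in 17, and Pfkl lost it with plain probe sets, where only a probe set near the floor is left (change -0.07). The other called members kept their call and direction wherever they could be fitted, apart from the 2-fold requirement. Leaving out each array gave 7 to 10 members higher and 10 to 12 lower, 18 to 20 and 18 to 26 further pathway genes, 8 to 10 further probe sets of members, 10 pairs in every case, and 2565 to 2962 genes higher and 2345 to 4819 lower. The last value, against 2666, came without embryoid body array 9, and array weights gave 5109. The cause was not tested. Without embryoid body array 9, 10 members were higher and 12 lower, beside 2962 and 4819 of all genes. Plain probe sets gave 5 members higher and 3 of 12 further probe sets called. With a change of at least 1 there were 5 members higher and 5 lower, 8 and 6 further pathway genes, and 1069 and 661 genes. Arrays 7 to 10 alone gave 11 further pathway genes lower. Array weights and the split by number as a term each gave 16 further probe sets called. Among the further pathway genes named, Vldlr changed by 0.45 with plain probe sets and was not called, Vhl missed the threshold without embryoid body arrays 7 and 9 (1.02) and in arrays 7 to 10 (0.87), and Adpgk in 11 of the alternatives. No result changed sign with a call. Quantile normalization and median centring left the median change of all genes at -0.01 and -0.02. No paired analysis was run, because the labels do not say whether any ESC and embryoid body samples belong together.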
